A study of Mus musculus with 16 samples.

Results

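Synaptotagmins are membrane-trafficking proteins that carry a pair of C2 domains. The transcripts of 9 genes of the family were followed through mouse intestinal organoids: Syt1, Syt5, Syt7, Syt8, Syt11, Syt13, Syt14, Syt16 and Syt17. They were taken by symbol from the deposited day 2 and day 4 gene tables, and are 9 of the 21484 genes listed in either table and 9 of the 13 synaptotagmin genes listed there. The 9 were chosen with their difference between treated and control organoids at both days already known. Their treatment differences are therefore given as a description, with no test.

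Poly(A) RNA was sequenced from epithelial organoids of the jejunum, on a C57BL/6 background. Organoids of all 4 groups carried Villin-CreERT2, a tamoxifen-activated Cre recombinase driven by the Villin promoter of the intestinal epithelium, and were homozygous for a floxed Hnf4a gene, whose product is a nuclear receptor. The 4OHT groups received 0.5 µM 4-hydroxytamoxifen for 24 h before the organoids were split, and the DMSO groups received the solvent. Each treatment was sampled at day 2 and at day 4 with 4 libraries a group; the labels describe a harvest at day 4 after passage and give no separate description of day 2. Only the 4OHT groups received the agent, so an effect of 4OHT or of Cre activity and an effect of Hnf4a loss cannot be told apart. The labels do not say whether replicates were separate cultures or animals. A p-value here therefore reflects the spread among libraries, part or all of which may be technical.

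Library totals were 63.8 M to 93.3 M counts. Hnf4a, the targeted gene, averaged 1020 ± 31.7 CPM in DMSO at day 2 (SD, n = 4) against 511 ± 21.2 CPM in 4OHT, and 967 ± 11.9 against 469 ± 15.3 CPM at day 4. CPM is a gene's count set to a fixed library total after TMM scaling, so that libraries of different depth can be compared. The treatment groups did not overlap, and the log2 fold changes were -0.99 ± 0.05 (SE) at day 2 and -1.04 ± 0.05 at day 4. By the quasi-likelihood test of edgeR with Benjamini-Hochberg adjustment, p was 8.25e-08 and 1.14e-06. The counts are per gene and include exons outside the floxed part. All 10 epithelial markers were listed in every group, with sums of 8210 to 14303 CPM over the libraries. Of 8 stromal markers 5 (Col1a2, Col3a1, Dcn, Lum and Acta2) were not listed. The other 3 summed to 1.24 to 2.46 CPM. Listed too were 5 of 6 immune markers (4.65 to 9.33 CPM) and 6 of 10 neural and glial markers (6.59 to 13.9 CPM). Of the stromal markers tested, only Col1a1 was called, higher in 4OHT at both days (log2 1.025 and 1.114). Its day 4 call was lost in 7 of 12 alternative runs.

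In the classical members, such as Syt1 in neurons, binding of Ca2+ to the C2 domains triggers fusion of a docked vesicle with the plasma membrane through the SNARE proteins. Syt1, Syt5 and Syt7 belong to the Ca2+-binding class, whereas Syt8, Syt11, Syt13, Syt14, Syt16 and Syt17 are generally described as lacking the residues for Ca2+ binding and have less well defined roles in trafficking. In the gut epithelium, regulated exocytosis releases mucin from goblet cells, antimicrobial proteins from Paneth cells and hormones from enteroendocrine cells.

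Scaled by the length of annotated exons, Syt8 was the most abundant of the 9 transcripts in all 4 groups. Its level per kilobase was 24.1 ± 2.42 CPM per kb in DMSO at day 2 against 55.1 ± 2.47 in 4OHT, and 3.71 ± 0.62 in DMSO and 20.6 ± 5.83 in 4OHT at day 4 (SD, n = 4). This was 81.6%, 85.1%, 44.4% and 70.8% of the summed level of the 9. Syt7 was next in 3 of the 4 groups, at 1.88 ± 0.06 CPM per kb in DMSO at day 2, 2.16 ± 0.08 in DMSO at day 4 and 3.90 ± 0.29 in 4OHT at day 4. In 4OHT at day 2, Syt16 (3.59 ± 0.56 CPM per kb) and Syt7 (3.06 ± 0.07) were next, and their ranges overlapped. Syt1 was last in all 4 groups, at 0.00624 to 0.0258 CPM per kb.

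The middle of the order changed between groups. In DMSO at day 2 it ran Syt16, Syt14, Syt13, Syt11, Syt17 and Syt5, with overlapping ranges between Syt14 and Syt13, between Syt11 and Syt17, and between Syt17 and Syt5. In DMSO at day 4, Syt13 came next after Syt7 (1.03 ± 0.10 CPM per kb), followed by Syt11, Syt14, Syt5, Syt16 and Syt17. There Syt11 and Syt14 overlapped, as did Syt5 and Syt16. In 4OHT at day 4, Syt16 again followed Syt7 (1.95 ± 0.71 CPM per kb), above Syt13, whose range overlapped that of Syt14. Syt11, Syt5 and Syt17 followed, each overlapping its neighbour among these. Annotated exon length is an upper bound on the length of the transcripts in use, so levels of genes with many isoforms may be understated.

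**Figure D1:**
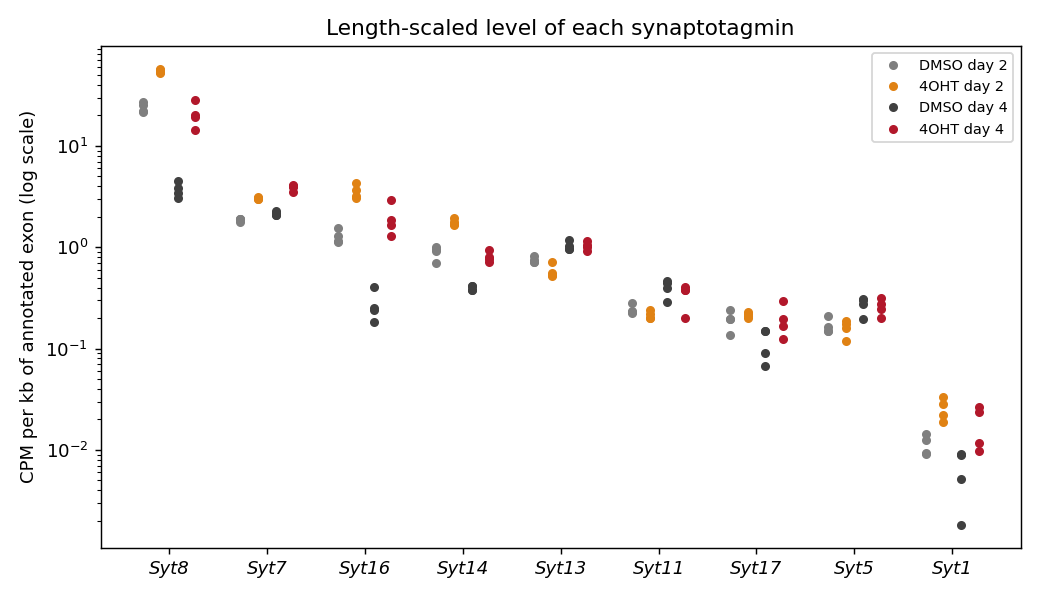
Level of each synaptotagmin in CPM per kb of annotated exon, on a log axis; each point is 1 of 4 libraries and colours mark the 4 groups. Syt8 lies above every other gene within each group (3.71 to 55.1 CPM per kb as group means), and Syt1 lies below every other gene.

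Across the 9 genes, 5 were called higher and 1 lower in 4OHT at day 2 at an edgeR adjusted p below 0.05, beside 16.9% and 14.3% of all 15897 genes tested. At day 4, 4 of the 8 tested were called higher and 0 lower, beside 13.7% and 11.1% of 16040 genes; with the replicate number as a block, 5 were called, beside 45.0% of genes in either direction. The genes were chosen on these comparisons, so nothing is read from these counts. Syt1, among the 5 called higher at day 2, passed the filter on low counts only through its higher 4OHT group. The treatment groups did not overlap for 5 higher genes and 1 lower gene at day 2, beside 17.0% and 14.8% of genes tested. At day 4 they did not overlap for 5 higher genes, Syt1 included, and 0 lower, beside 14.7% and 13.6%. Syt1 was not among the genes tested at day 4. Its lowest 4OHT library there held 0.0812 CPM, against 0.0753 in the highest DMSO library. The median log2 fold change of the tested genes was 0.71 at day 2, Syt1 included, and 0.82 at day 4, without Syt1. Over all genes tested the medians were -0.00 and -0.01. The medians of the tested genes cover unlike sets at the 2 days. They carry the same choice of genes as the counts, so nothing is read from them either.

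**Figure D2:**
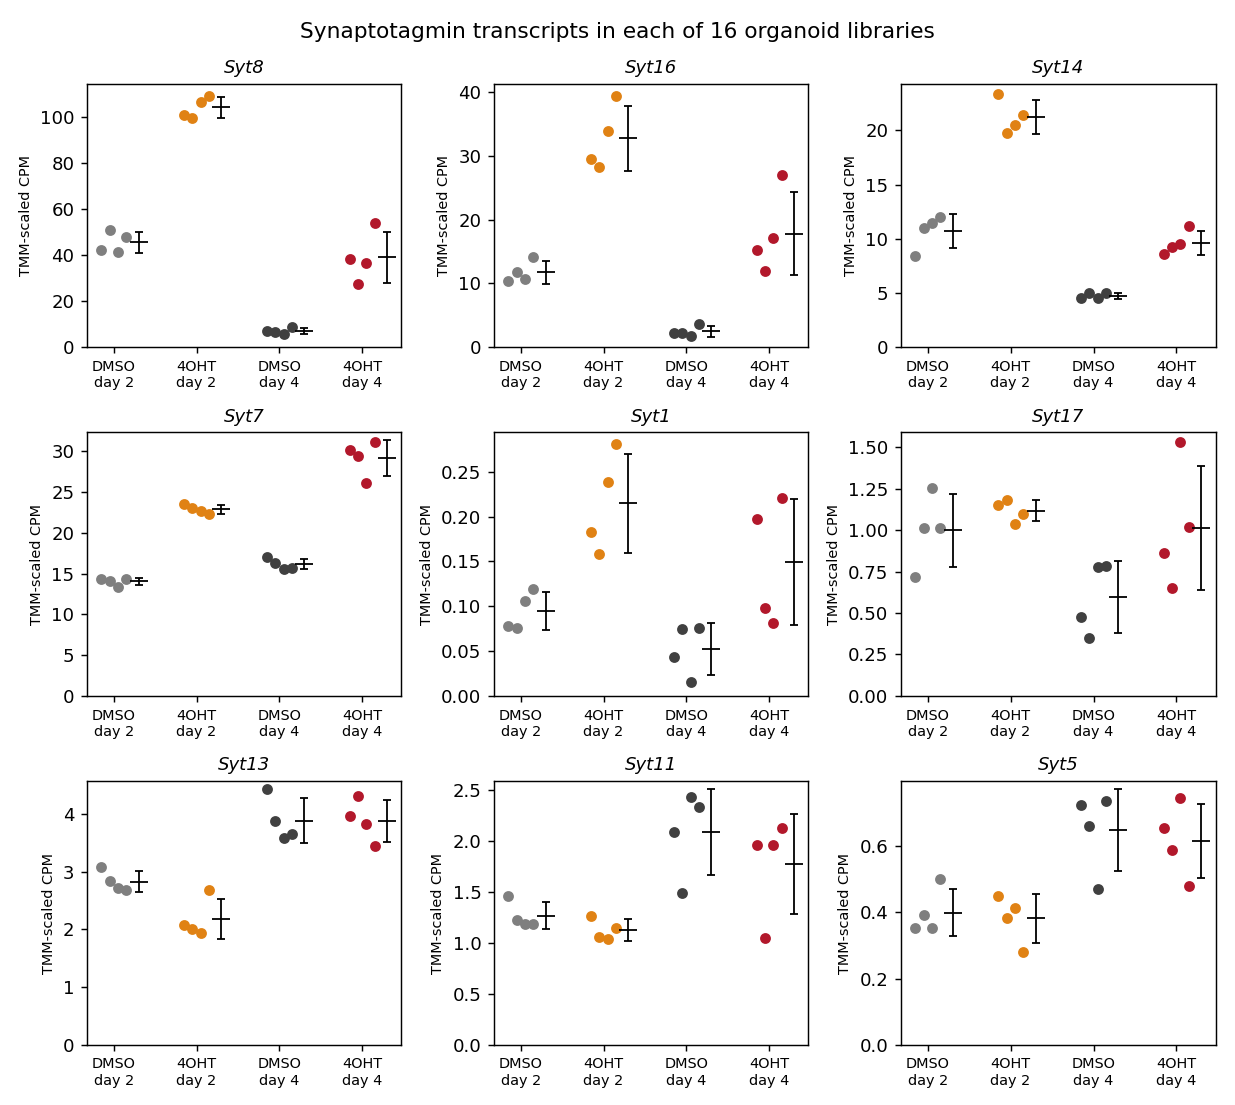
TMM-scaled CPM of each synaptotagmin in each library (points), with the group mean and SD (black bars, n = 4); every axis starts at 0. For Syt8, Syt16, Syt14, Syt7 and Syt1, all 4OHT libraries lie above all DMSO libraries of the same day.

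Syt8, Syt16 and Syt14 shared a pattern: higher in 4OHT at each day, and lower at day 4 than at day 2 under either treatment. Syt8 (ENSMUSG00000031098, GRCm38 chromosome 7, 142434850 to 142440396, plus strand) encodes a synaptotagmin that does not depend on Ca2+ binding and is known in the mouse from the sperm acrosome reaction. At day 2 it measured 42.2, 51.0, 41.4 and 47.8 CPM in the DMSO libraries and 100.9, 99.8, 106.9 and 109.5 CPM in the 4OHT libraries, in order of replicate. At day 4 it measured 7.21, 6.57, 5.78 and 8.57 CPM in DMSO and 38.4, 27.4, 36.5 and 54.0 CPM in 4OHT. The treatment groups did not overlap at either day. The log2 fold change was 1.20 ± 0.07 (SE) at day 2 and 2.48 ± 0.20 at day 4, a difference of 1.28 ± 0.22 between days. In DMSO organoids, Syt8 fell by day 4 to 15.4% of its day 2 mean (log2 -2.68 ± 0.11, edgeR quasi-likelihood adjusted p = 5.31e-09; lower in 4 of 4 libraries). The 4OHT day 4 libraries, at 85.7% of the DMSO day 2 mean, overlapped the DMSO day 2 libraries. These are bulk samples, in which fewer cells of a type and less RNA per cell cannot be told apart.

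Syt16 (ENSMUSG00000044912, GRCm38 chromosome 12, 73997661 to 74273267, plus strand) encodes a relative of Syt14 without a transmembrane segment. It measured 10.3, 11.8, 10.6 and 14.2 CPM in DMSO and 29.5, 28.2, 34.0 and 39.5 CPM in 4OHT at day 2. At day 4 the values were 2.20, 2.28, 1.69 and 3.70 CPM in DMSO and 15.2, 11.9, 17.1 and 27.0 CPM in 4OHT. Again no 4OHT library overlapped the DMSO libraries of its day. Its log2 fold changes, 1.49 ± 0.12 at day 2 and 2.86 ± 0.29 at day 4, were the largest among the tested genes of the 9 at both days, and differed by 1.38 ± 0.34 between days. Its DMSO mean fell with time from 11.7 to 2.47 CPM (log2 -2.24 ± 0.20, edgeR adjusted p = 3.79e-06). Replicate 4 of 4OHT at day 4 was the highest library of its group for both Syt8 and Syt16. Without it the day 4 log2 fold changes were 2.28 ± 0.14 for Syt8 and 2.59 ± 0.22 for Syt16, and the differences between days were 1.09 ± 0.16 and 1.11 ± 0.27. An antisense gene, Gm29587, overlaps 183 bp (2.0%) of the exons of Syt16, and the strand setting of the counting is not given in the sources used here.

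Syt14 (ENSMUSG00000016200, GRCm38 chromosome 1, 192891233 to 193035775, minus strand), also of the class that does not bind Ca2+, showed nearly equal differences at the 2 days. Its DMSO libraries held 8.40, 11.0, 11.4 and 12.04 CPM at day 2 and its 4OHT libraries 23.4, 19.8, 20.5 and 21.4 CPM. At day 4 they held 4.51, 4.98, 4.51 and 4.95 CPM in DMSO and 8.57, 9.21, 9.52 and 11.2 CPM in 4OHT. The treatment groups were separate at both days. The log2 fold changes were 0.995 ± 0.10 and 1.02 ± 0.09, and the difference between them was 0.03 ± 0.14 (95% interval -0.25 to 0.31). Over time in DMSO, Syt14 fell to 44.3% (log2 -1.16 ± 0.11, edgeR adjusted p = 1.77e-06).

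The sequences just upstream of these 3 genes are shown because the genes shared a pattern over treatment and time. RefSeq promoter windows (GRCm38.p6, 250 bases before the start) were held for 5 of the 9 genes. Both strands were searched for the letters CAAAGTCCA (HNF4), TGANTCA (AP-1) and CATTCC (TEAD), and capitals mark a match. The sequences are written 5′ to 3′ on the strand of the gene. For Syt8 the window, the most upstream of 3, is chr7:142434600-142434849 on the plus strand, for Syt14 chr1:193035776-193036025 on the minus strand, and for Syt16 the part shown is the 134 bases before the annotated gene start, chr12:73997527-73997660 on the plus strand, while all 250 were searched.
Syt8: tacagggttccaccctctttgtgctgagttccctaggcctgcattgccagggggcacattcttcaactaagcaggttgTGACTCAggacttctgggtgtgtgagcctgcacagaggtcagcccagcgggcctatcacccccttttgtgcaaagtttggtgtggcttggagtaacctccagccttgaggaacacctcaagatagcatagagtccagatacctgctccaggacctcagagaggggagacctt
Syt14: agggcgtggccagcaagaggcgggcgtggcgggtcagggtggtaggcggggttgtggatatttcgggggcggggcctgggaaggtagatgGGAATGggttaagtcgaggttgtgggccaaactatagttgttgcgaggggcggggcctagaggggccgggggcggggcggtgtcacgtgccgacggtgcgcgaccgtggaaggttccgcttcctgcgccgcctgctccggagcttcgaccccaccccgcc
Syt16: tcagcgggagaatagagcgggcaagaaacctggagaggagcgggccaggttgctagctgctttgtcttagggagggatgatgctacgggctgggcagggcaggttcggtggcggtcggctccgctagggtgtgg
The Syt8 window shown held 1 AP-1 match, 172 bases before its start, while the 2 other Syt8 windows held 0 matches to any of the letters, and the Syt14 window 1 TEAD match, 160 bases before the start. None of the 3 held the HNF4 letters, which says only that these letters are not in these windows. Of 32851 RefSeq windows of these 250 bases, 0.384% held the HNF4 letters, 6.75% the AP-1 letters and 12.6% the TEAD letters. In base composition the 3 differed: the Syt8 window had 54.8% G and C with 1 CG pair, near the median of all windows in G and C (52.4%, 6 CG pairs), while Syt14 had 69.2% with 25 CG pairs and the full Syt16 window 72.8% with 30 CG pairs.

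Syt7 (ENSMUSG00000024743, GRCm38 chromosome 19, 10389090 to 10453180, plus strand), a high-affinity Ca2+ sensor of lysosome and granule exocytosis, was higher in 4OHT but did not fall with time. At day 2 the DMSO libraries held 14.4, 14.1, 13.4 and 14.3 CPM and the 4OHT libraries 23.5, 23.1, 22.7 and 22.3 CPM. At day 4 they held 17.0, 16.3, 15.6 and 15.7 CPM in DMSO and 30.1, 29.4, 26.1 and 31.2 CPM in 4OHT. The 4 libraries of each group lay close together, and no group overlapped another. The log2 fold changes of 4OHT over DMSO were 0.71 ± 0.05 and 0.85 ± 0.06, with a difference between days of 0.15 ± 0.08 (95% interval -0.00 to 0.30). In DMSO, Syt7 rose slightly by day 4 (log2 0.22 ± 0.06, edgeR adjusted p = 0.00615; higher in 4 of 4 libraries). A long noncoding gene on the opposite strand, Gm26859, overlaps 384 bp (5.1%) of its exons.

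Syt1 (ENSMUSG00000035864, GRCm38 chromosome 10, 108497650 to 109010982, minus strand), the Ca2+ sensor of fast neurotransmitter release, was close to the limit of detection. Its raw counts were 6, 7, 9 and 10 in DMSO and 13, 12, 15 and 25 in 4OHT at day 2. At day 4 they were 4, 7, 1 and 5 in DMSO and 16, 8, 6 and 18 in 4OHT. After scaling the groups did not overlap at either day. Syt1 passed the filter on low counts at day 2 only through its higher 4OHT group (log2 1.19 ± 0.28), and was filtered out at day 4, where the fit without a filter gave 1.48 ± 0.48. The DMSO time comparison, also without a filter, gave -0.82 ± 0.44 (edgeR adjusted p = 0.146), although all 4 DMSO day 4 libraries were below all 4 of day 2 after scaling.

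Syt5 (ENSMUSG00000004961, GRCm38 chromosome 7, 4539765 to 4547541, minus strand), a Ca2+-binding member found on secretory vesicles, showed overlapping treatment groups at both days. It measured 0.35 to 0.50 CPM in DMSO and 0.28 to 0.45 CPM in 4OHT at day 2, and 0.47 to 0.74 and 0.48 to 0.74 CPM at day 4. The log2 fold changes were -0.08 ± 0.20 (95% interval -0.47 to 0.32) and -0.08 ± 0.20 (-0.46 to 0.30). In DMSO it rose with time (log2 0.72 ± 0.19, edgeR adjusted p = 0.00679), though 1 DMSO day 4 library, replicate 3, lay within the day 2 range.

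Syt13 (ENSMUSG00000027220, GRCm38 chromosome 2, 92915098 to 92956058, plus strand) does not bind Ca2+ and is known in the mouse pancreas from the endocrine lineage. It was the only one of the 9 whose 4OHT libraries all lay below the DMSO libraries at day 2. The values were 3.07, 2.83, 2.71 and 2.69 CPM in DMSO and 2.08, 2.00, 1.94 and 2.68 CPM in 4OHT, so that the highest 4OHT library lay just under the lowest DMSO library. At day 4 the values were 4.43, 3.87, 3.59 and 3.64 CPM in DMSO and 3.96, 4.31, 3.82 and 3.43 CPM in 4OHT, and the groups overlapped. The log2 fold change was -0.36 ± 0.11 at day 2 and -0.00 ± 0.11 at day 4 (95% interval -0.21 to 0.21), a difference of 0.37 ± 0.16. With time in DMSO, Syt13 rose (log2 0.48 ± 0.10, edgeR adjusted p = 0.00142; higher in 4 of 4 libraries).

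Syt11 (ENSMUSG00000068923, GRCm38 chromosome 3, 88744700 to 88775164, minus strand), which in neurons restrains endocytosis, measured 1.18 to 1.46 CPM in DMSO and 1.03 to 1.27 CPM in 4OHT at day 2. At day 4 it measured 1.49 to 2.43 CPM in DMSO and 1.04 to 2.12 CPM in 4OHT. The treatment groups overlapped at both days, with log2 fold changes of -0.16 ± 0.12 and -0.23 ± 0.23 (95% intervals -0.39 to 0.08 and -0.68 to 0.22). In DMSO it rose with time by a log2 fold change of 0.73 ± 0.16 (edgeR adjusted p = 0.00168; higher in 4 of 4 libraries).

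Syt17 (ENSMUSG00000058420, GRCm38 chromosome 7, 118380717 to 118448222, minus strand), also called B/K protein, is anchored to membranes without a transmembrane segment. It measured 0.72, 1.01, 1.254 and 1.01 CPM in DMSO and 1.15, 1.18, 1.03 and 1.10 CPM in 4OHT at day 2. At day 4 it measured 0.48, 0.35, 0.78 and 0.78 CPM in DMSO and 0.86, 0.65, 1.53 and 1.02 CPM in 4OHT. The treatment groups overlapped at both days, with log2 fold changes of 0.16 ± 0.16 and 0.79 ± 0.32. At day 4 each 4OHT library lay above the DMSO library of the same number, and with the replicate block the fold change was 0.77 ± 0.16. In DMSO it fell with time by 0.78 ± 0.25 on the log2 scale (edgeR adjusted p = 0.0185), and the call was lost on leaving out replicate 3 of DMSO at day 2 (edgeR adjusted p = 0.0548) or replicate 1 of DMSO at day 4 (0.0607).

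**Figure D3:**
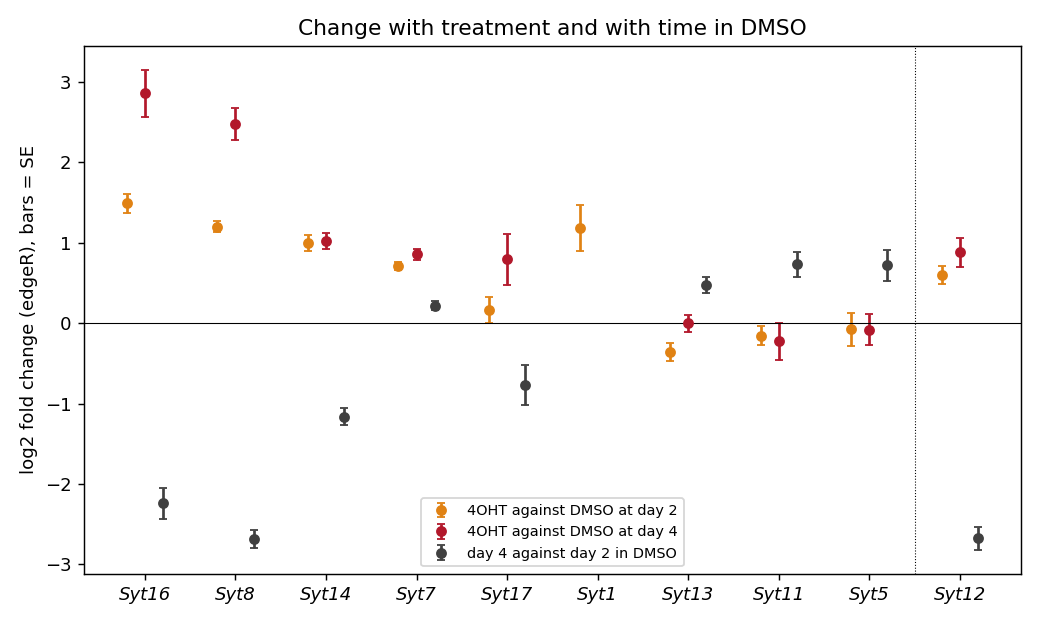
Log2 fold change (points) with its SE (bars) of 4OHT over DMSO at day 2 and day 4 and of day 4 over day 2 in DMSO; Syt12, right of the dotted line, is not one of the 9 genes, and Syt1 was tested at day 2 only. Syt16, Syt8 and Syt14 lie above 0 for treatment and below 0 for time (-2.24, -2.68 and -1.16), while Syt7 lies above 0 in all 3 comparisons.

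In DMSO organoids the tested genes of the 9 thus split with time. Of the 8 tested genes, 4 rose (Syt5, Syt7, Syt11 and Syt13) and 4 fell (Syt8, Syt14, Syt16 and Syt17) by day 4, beside 28.7% and 24.8% of all 16088 genes tested. The days did not overlap for 3 that were higher (Syt7, Syt11 and Syt13) and 4 that were lower (Syt1, Syt8, Syt14 and Syt16) at day 4, beside 24.4% and 24.2% of genes tested. Syt1 was not among the genes tested. Its highest day 4 library held 0.0753 CPM, against 0.0760 in the lowest of day 2. The median log2 fold change of the 8 tested genes was -0.28, beside 0.03 over all genes tested. The DMSO libraries are also the controls of the treatment comparisons on which the genes were chosen. The time tests of these genes are therefore not independent of that choice. The days come from separate deposited tables, so day and any difference in handling between the tables cannot be told apart. Markers of several cell types also differed between the days. In DMSO, 15 of 26 enteroendocrine markers tested rose and 0 fell, with a summed level of 330 to 375 CPM at day 2 and 376 to 502 CPM at day 4, and only Pcsk2 of 27 was not listed. Of 7 tuft markers tested 6 rose and 0 fell, with sums of 9.18 to 12.5 and 17.2 to 22.9 CPM. Epithelial markers went the other way: 6 of 10 fell and 1 rose, with sums of 11651 to 12897 CPM at day 2 and 8210 to 8553 CPM at day 4. Of 8 goblet markers 3 fell, among them Clca1 (log2 -1.93 ± 0.07, edgeR adjusted p = 9.59e-10) and Zg16 (-1.29 ± 0.08, edgeR adjusted p = 4.69e-08), and 2 rose. The part of any of these in the rises and falls of the synaptotagmins with time was not tested.

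Beside the treatment differences, the goblet markers moved most among the marker lists in summed level. At each day 6 of 8 rose and 0 fell. The shares of all genes were 16.9% and 14.3% at day 2 and 13.7% and 11.1% at day 4. Goblet sums were 4472 to 5231 CPM in DMSO and 7012 to 9051 CPM in 4OHT at day 2. At day 4 they were 3392 to 4660 and 6653 to 8678 CPM. The day 2 count includes Tff3, whose groups overlapped (edgeR adjusted p = 0.0452) and whose call was lost in 9 of 13 alternative runs. Epithelial sums were also higher in 4OHT without overlap. They were 11651 to 12897 CPM in DMSO and 13231 to 14303 CPM in 4OHT at day 2. At day 4 they were 8210 to 8553 and 9573 to 10755 CPM. Of 10 epithelial markers, 2 rose and 2 fell at day 2, and 4 rose and 0 fell at day 4. The enteroendocrine sum at day 2 was 324 to 352 CPM in 4OHT, overlapping DMSO, with 2 of 26 markers higher (Pyy and Pcsk1) and 3 lower (Neurog3, Neurod1 and Insm1), beside 16.9% and 14.3% of all genes. At day 4 it was 389 to 499 CPM in 4OHT, with 5 markers higher and 1 lower, beside 13.7% and 11.1%. The tuft sums in 4OHT were 10.9 to 14.8 and 17.4 to 27.9 CPM, overlapping DMSO at both days, and the sums over the 6 listed neural and glial markers were 7.78 to 8.17 CPM in DMSO and 6.59 to 8.12 CPM in 4OHT at day 2, and 11.2 to 12.1 and 12.5 to 13.9 CPM at day 4. The part of these in the synaptotagmin differences was not tested.

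Among pairs of the 9 genes, log2 CPM over the 16 libraries correlated at r = 0.97 for Syt8 and Syt16, 0.96 for Syt8 and Syt14 and 0.93 for Syt14 and Syt16. Syt13 ran the other way from Syt14 (r = -0.83). The 16 points share 4 groups, so these values describe the groups more than separate libraries. Among 11392 genes searched, the closest to Syt8 were Zmat3, Akr1b8 and Sptssb (r = 0.997, 0.996 and 0.995). The closest to Syt16 were Ly6d, Slc9a4 and Anxa8 (0.994, 0.994 and 0.991), and those to Syt14 were Il22ra1, Kif1c and Psd4 (0.991, 0.990 and 0.989). Syt7 was most like Pde2a, Atp2a3 and Hivep3 (0.978, 0.969 and 0.965). For Syt13 they were Sardh, Insm1 and RP24-127M20.11 (0.966, 0.961 and 0.958). Syt1, filtered out at day 4, was not ranked. Likeness was lower for Syt11 (Egln1, Tmem107 and Lsm14b, 0.954 to 0.946), Syt17 (Snap23, Atg4a and Themis3, 0.904 to 0.885) and Syt5 (Zbtb20, Ets1 and Rbms3, 0.885 to 0.861).

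Of the other synaptotagmins, Syt12, Syt2, Syt3 and Syt9 were listed, and Syt4, Syt6, Syt10 and Syt15 were listed at neither day. Syt12 (GRCm38 chromosome 19, 4445908 to 4477447, minus strand), another member that does not bind Ca2+, measured 8.05, 8.41, 8.06 and 10.7 CPM in DMSO and 11.9, 11.6, 15.2 and 14.3 CPM in 4OHT at day 2. At day 4 it measured 1.37, 1.17, 1.19 and 1.76 CPM in DMSO and 2.64, 2.17, 2.11 and 3.14 CPM in 4OHT. It rose with 4OHT at day 2 (log2 0.60 ± 0.11, edgeR adjusted p = 0.00182) and at day 4 (0.88 ± 0.18, edgeR adjusted p = 0.00515), with a difference between days of 0.29 ± 0.21 (edgeR adjusted p = 0.496). In DMSO it fell with time by 2.68 ± 0.14 on the log2 scale (edgeR adjusted p = 1.69e-08). At day 4 its 4OHT mean was 28.6% of the DMSO day 2 mean, with no overlap, where Syt8, Syt14 and Syt16 stood at 85.7%, 89.8% and 152% with overlap. The noncoding gene A930001C03Rik overlaps 950 bp (17.2%) of its exons on the other strand.

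Syt2, Syt3 and Syt9 were near the limit of detection. Syt2 had raw counts of 4 to 9 in DMSO and 7 to 19 in 4OHT at day 2, and 0 to 3 and 6 to 9 at day 4. Fitted without a filter, its log2 fold change was 1.01 ± 0.37 at day 2 (edgeR adjusted p = 0.0651) and 2.48 ± 0.55 at day 4 (edgeR adjusted p = 0.00821). Syt3 ran lower in 4OHT at day 2, with 8 to 13 counts in DMSO and 2 to 7 in 4OHT (-1.001 ± 0.37 without a filter, edgeR adjusted p = 0.0682), and had 13 to 19 and 9 to 15 counts at day 4 (-0.51 ± 0.29, edgeR adjusted p = 0.236). Its rise with time in DMSO (0.75 ± 0.28, edgeR adjusted p = 0.0368) was lost by DESeq2 (adjusted p = 0.114), without a filter (edgeR adjusted p = 0.053) and on leaving out any of DMSO day 2 replicates 1 to 3 or DMSO day 4 replicates 3 and 4 (edgeR adjusted p = 0.0608 to 0.124). Syt9, in the day 4 table only, had 0 to 4 counts in DMSO and 0 to 8 in 4OHT.

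The relatives on the list, Syt12 included, were higher in 4OHT wherever they passed the test. Of 29 relatives on the list 23 were listed; 10 of 14 tested rose and 0 fell at day 2 (median log2 0.47), beside 16.9% and 14.3% of all genes. At day 4, 9 of 16 rose and 0 fell (0.45), beside 13.7% and 11.1%. With time in DMSO, 3 of 16 rose and 6 fell (-0.08), beside 28.7% and 24.8%. The synaptotagmin-like proteins, effectors of Rab27 that tether secretory granules, rose in 4 of 5 at each day (Sytl1, Sytl2, Sytl4 and Sytl5). Sytl2 rose from 33.1 ± 2.37 to 58.1 ± 2.84 CPM at day 2 (log2 0.82 ± 0.06, edgeR adjusted p = 1.56e-06), and Sytl4 from 6.11 ± 0.54 to 12.4 ± 1.05 CPM (1.02 ± 0.08, edgeR adjusted p = 3.76e-06). At day 4 their log2 fold changes were 0.50 ± 0.05 and 0.79 ± 0.06. Of the extended synaptotagmins, which join the endoplasmic reticulum to the plasma membrane, Esyt1 rose at both days (0.32 ± 0.04 and 0.34 ± 0.06). Esyt2 rose at day 2 (0.35 ± 0.08) and measured 0.16 ± 0.07 at day 4 (edgeR adjusted p = 0.133; 0.038 with the replicate block and 0.0439 without 4OHT day 4 replicate 2).

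The ferlins are large proteins with several C2 domains, and one of them, Fer1l4, had the largest fold change of the tested relatives in each of the 3 comparisons. Myof, which encodes myoferlin, a protein of membrane repair and fusion, rose from 37.5 ± 4.17 to 99.0 ± 6.72 CPM at day 2 (log2 1.41 ± 0.08, edgeR adjusted p = 1.82e-07). At day 4 it rose from 9.49 ± 1.52 to 40.1 ± 7.85 CPM (2.08 ± 0.15, edgeR adjusted p = 2.35e-05), and in DMSO it fell with time by 1.97 ± 0.11 on the log2 scale. Fer1l4 rose by 2.402 ± 0.11 at day 2 and 4.13 ± 0.33 at day 4 from DMSO levels of 1.74 ± 0.28 and 0.24 ± 0.08 CPM, and fell with time in DMSO by 2.85 ± 0.21. Each was higher in 4 of 4 4OHT libraries at both days, as Syt8 and Syt16 were.

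**Figure D4:**
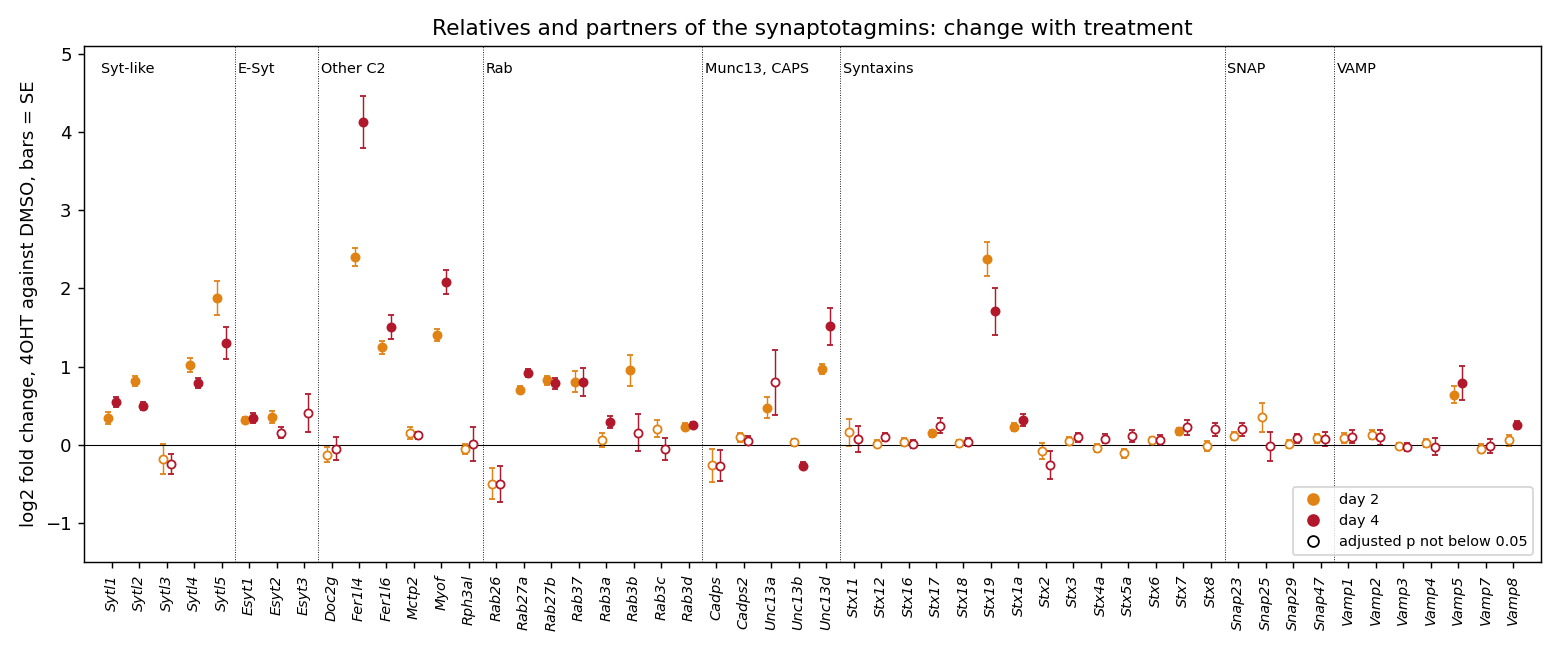
Log2 fold change of 4OHT over DMSO (points) with its SE (bars) for tested C2-protein relatives and for syntaxins, SNAP, VAMP, Munc13, CAPS and Rab genes, at day 2 and day 4; filled points had an edgeR adjusted p below 0.05. Most SNARE genes lie near 0, whereas Fer1l4 (2.402 and 4.13), Myof (1.41 and 2.08) and Unc13d (0.97 and 1.52) lie well above it.

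Synaptotagmins act with SNARE proteins, which pull membranes together, and with the Rab and Munc13 proteins that dock and prime vesicles. Of 65 genes of this machinery 59 were listed and 57 tested. At day 2, 14 rose and 3 fell (median log2 0.09), beside 16.9% and 14.3% of all genes. At day 4, 13 rose and 3 fell (0.08), beside 13.7% and 11.1%. With the replicate block 27 of the 57 changed at day 4 in place of 16, beside 45.0% of all genes. By class, 5 of 8 Rab genes rose at each day and 0 fell. Of the 4 SNAP genes 0 passed the main test at either day, and of 7 VAMP genes 1 rose at day 2 and 2 at day 4. Snap23 passed at day 4 with the replicate block (log2 0.19 ± 0.04, edgeR adjusted p = 0.00189). It also passed on leaving out 4OHT day 4 replicate 2 (edgeR adjusted p = 0.0326) or, at day 2, DMSO replicate 3 (0.0235). Rab27a, a Rab of granule docking, rose from 15.8 ± 0.44 to 25.6 ± 0.67 CPM at day 2 (log2 0.71 ± 0.04, edgeR adjusted p = 4.68e-07) and by 0.92 ± 0.05 at day 4. Rab27b rose by 0.83 ± 0.06 and 0.79 ± 0.07. Unc13d, which encodes the Rab27 partner Munc13-4, rose by 0.97 ± 0.07 at day 2 and 1.52 ± 0.24 at day 4 (1.22 ± 0.13 without 4OHT day 4 replicate 4), and fell with time in DMSO by 1.38 ± 0.08.

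Among 14 syntaxins tested, 4 rose and 0 fell at day 2, beside 16.9% and 14.3% of all genes. At day 4, 2 rose and 0 fell, beside 13.7% and 11.1%. With the replicate block at day 4, Stx7, Stx5a and Stx12 also passed (edgeR adjusted p = 0.00259, 0.00796 and 0.0206), beside 45.0% of all genes. Stx19 rose most, from 0.21 ± 0.06 to 1.09 ± 0.23 CPM at day 2 (log2 2.38 ± 0.22) and from 0.37 ± 0.12 to 1.20 ± 0.44 CPM at day 4 (1.71 ± 0.30). At day 2 the abundant Stx7 rose from 96.4 ± 2.92 to 108.1 ± 1.84 CPM (0.17 ± 0.04, edgeR adjusted p = 0.00681), whereas the likewise abundant Stx12 (0.02 ± 0.04, edgeR adjusted p = 0.799) and Vamp3 (-0.01 ± 0.04, edgeR adjusted p = 0.852) did not pass the test. The genes that fell at day 2 included Stxbp6, which encodes the SNARE-binding protein amisyn (-0.31 ± 0.06; -0.48 ± 0.07 at day 4), and Cplx2, a complexin that clamps SNARE assembly (-0.51 ± 0.10). Both rose with time in DMSO, by 0.61 ± 0.06 and 1.16 ± 0.10. In that comparison 18 of 57 machinery genes rose and 14 fell (median 0.06), close to the 28.7% and 24.8% of all genes. Nsf, the ATPase that takes SNARE complexes apart, rose with 4OHT (0.33 ± 0.05 and 0.26 ± 0.05) and fell with time in DMSO by 0.59 ± 0.05.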

How the data were processed

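Poly(A) RNA of 16 libraries of mouse jejunal organoids was sequenced, starting from 250 ng of total RNA with a kit that keeps strand, per the labels' protocols. The submitters' processing notes name STAR 2.4.0f1, bcl2fastq 1.8.4 and the build GRCm38. How reads were counted (tool, annotation, strand) is not given in the sources used here. The authors deposited 1 table a day with whole-number read counts per gene, which were used; 16 further per-sample columns of normalized values were not used. Each listed gene has at least 10 summed counts. The tables list 20790 and 20658 genes. Coordinates and exon lengths are from GENCODE M21.

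The main test was the robust quasi-likelihood F test of edgeR 4.0.16 (limma 3.58.1, R 4.3.3) with TMM scaling and the filterByExpr filter, and a gene was called at a Benjamini-Hochberg adjusted p below 0.05 over all genes tested. Treatment comparisons used the 8 libraries of a day, the time comparison the 8 DMSO libraries, and the difference between days all 16. CPM values share 1 TMM scaling over all 16 libraries. The scripts were tested on simulated data. Without molecular identifiers, counting error understates the true error. Libraries of a group differed by more than counting noise in all 24 pairs. Library groups follow the labels.

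The members, gene lists and tests were chosen with earlier results of these data known. All synaptotagmins in the tables were named. From each other list and comparison, the 2 genes of smallest p and the 2 of highest mean level could be named; Sytl5, Pyy, Pcsk1 and Neurod1 were named in addition, after their values were seen. The 3 genes most like each member were ranked by Pearson r of log2 CPM. At day 4, same-numbered DMSO and 4OHT libraries deviated together (r = 0.64 to 0.81 over genes, and all 8 libraries were closest to their namesake). The numbers were therefore taken to pair them in the replicate block, from the data and not from the labels. The main day 4 fits leave this pairing out, so a gene not called there may be called with the block. At day 2 (-0.11 to 0.49) and between days in DMSO (0.06 to 0.18) they were not taken as pairs. Alternatives were DESeq2 1.42.0, its size factors in edgeR, no filter, a filter of 1 CPM in 4 libraries, a replicate block, and each library left out in turn.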

Additional observations from a re-analysis of the deposited data

Results flagged for a closer look

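Within each group of 4 libraries, the CPM of each of the 13 listed synaptotagmins was examined for a library far from the rest, by Dixon's gap at the 95% level, in 50 groups; chance flags about 5% of groups, and 3 were found. Syt11 in DMSO at day 2 was highest in replicate 1, at 1.46 CPM against 1.18 to 1.23 in the others. Syt11 in 4OHT at day 4 was lowest in replicate 2, at 1.04 CPM, where the others held 1.961 to 2.12. Syt12 in DMSO at day 2 was highest in replicate 4, at 10.7 CPM against 8.05 to 8.41.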

How the results depend on the processing

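No called value changed direction under any alternative run. With the replicate block, which the libraries support at day 4, genes called at day 4 went from 3967 to 7216. Fusion machinery genes called at day 4 went from 16 to 27. Genes called for the difference between days went from 278 to 1850. That block also covered the day 2 libraries, whose numbers were not taken as pairs. Leaving out 1 library gave 94 to 727 calls for the difference between days. The block moved no other count of calls by over 1.5 times. Of the 9 synaptotagmins, 5 or 6 were called at day 2, 4 or 5 at day 4 and 6 to 8 in the DMSO time comparison under all settings; the count of 6 came from the 1 CPM filter. Other scalings shifted the median of all genes by at most 0.021 in size (log2 -0.021, DMSO time). Depth limits Syt1, Syt2, Syt3 and Syt9, with at most 25 counts in a library. DESeq2 and the 1 CPM filter were not planned for the difference between days.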
